A study of Mus musculus with 40 samples.

Results

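Ribosome biogenesis genes encode the nucleolar machinery that transcribes ribosomal RNA, modifies and cleaves it, and assembles it with ribosomal proteins. A list of 40 such genes was followed across the early B-lineage of mouse bone marrow; all 40 were found among the 21958 genes of the count table by their Ensembl identifiers. The members fall into 6 roles: 3 RNA polymerase I subunits, 7 multifunctional nucleolar proteins, 4 proteins of the box C/D and U3 small nucleolar ribonucleoproteins (snoRNPs), 6 of the box H/ACA snoRNPs and pseudouridylation, 9 small subunit assembly factors and 11 large subunit assembly factors. They were listed for what they do, but with earlier results of these data known.

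Transcripts were counted by sequencing pools of 100 sorted cells of donor origin, 40 libraries in all, from 10 chimeric mice. Lethally irradiated CD45.1 hosts had received marrow 8 weeks earlier, either from donors homozygous for a CRISPR/Cas9-made P198A change in the zinc transporter ZIP7, encoded by Slc39a7 (mutant; mice 4, 5, 8, 9 and 10), or from wild-type donors (WT; mice 1, 2, 3, 6 and 7). All sorted cells were CD45.1- CD45.2+, that is, donor derived, and the mutation was present in the whole graft, so the hosts' own non-haematopoietic cells remained unmutated in both groups. Each mouse gave 1 library each of FrB (pro-B; B220+ CD43+ CD24+ BP1-), FrC (the next fraction; the labels name no gate for it), FrD (late pre-B; B220+ CD43- IgM- IgD-) and FrE (immature B; B220+ CD43- IgM+ IgD-), which makes 8 groups of 5 libraries. Mutant libraries are titled as knockouts, but the allele is a missense change, so the RNA level of Slc39a7 checks no label. Values of single libraries are listed below in the order of the mouse numbers given here, and gene positions are on mouse build mm10.

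In the nucleolus, RNA polymerase I transcribes the long ribosomal RNA precursor. Box C/D snoRNPs guide its ribose methylation, box H/ACA snoRNPs guide its pseudouridylation, and the U3 snoRNP with its partner factors folds and cleaves the part that becomes the small subunit. Large subunit factors act in turn on the remaining part. Cells that grow and divide make many ribosomes, and the transcription factor Myc is a well-known activator of these genes, acting in part through the E-box CACGTG in their promoters. In the bone marrow, pro-B and large pre-B cells grow and divide, and late pre-B cells are small and mostly resting.

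Library totals ran from 42111 counts (mutant mouse 9, FrE) to 43372070, and the median was 16474388.5; the library next to the lowest held 1723215 (mutant mouse 9, FrC). Low-complexity libraries, those where more than 15% of detected genes were seen with 1 to 9 counts, numbered 10: 8 were mutant (FrB of mice 4, 8, 9 and 10, FrC of mice 5, 9 and 10, FrE of mouse 9) and 2 were WT (FrD of mouse 3, FrE of mouse 7). The values below are CPM, counts of a gene scaled to the library's total of endogenous counts, and so are shares of a library. In libraries of 100 cells, fewer cells of a type and less RNA per cell cannot be told apart. One count was worth 23.7 CPM in the FrE library of mutant mouse 9, where a count of 0 allows up to 71.2 CPM; elsewhere a count of 0 allows at most 1.74 CPM, counting error only. Granulocyte and monocyte markers were found among the sorted cells, with summed levels up to 74802 CPM (WT FrD, mouse 3).

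Promoters of members that bear on the largest change are shown first. They belong to 4 genes that carry the E-box CACGTG and fell between WT FrC and FrD (Pus7, Wdr43, Mybbp1a and Nop2), and to Pa2g4, which fell in the same step and has no E-box in this window. Each sequence runs 5′ to 3′ on the gene's strand, from 250 bases before to 50 bases after the RefSeq start (GRCm38.p6), with the E-box in capitals. The windows are chr5:23783662-23783961 on the minus strand for Pus7 (one of its RefSeq starts), chr17:71615965-71616264 on the plus strand for Wdr43, chr11:72441077-72441376 on the plus strand for Mybbp1a, chr6:125131633-125131932 on the plus strand for Nop2 and chr10:128565885-128566184 on the minus strand for Pa2g4.
Pus7: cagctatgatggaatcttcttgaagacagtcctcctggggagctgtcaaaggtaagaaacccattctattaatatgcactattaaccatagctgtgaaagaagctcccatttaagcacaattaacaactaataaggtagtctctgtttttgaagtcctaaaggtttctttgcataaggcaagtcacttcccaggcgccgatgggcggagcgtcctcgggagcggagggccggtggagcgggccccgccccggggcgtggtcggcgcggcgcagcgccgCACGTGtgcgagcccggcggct
Wdr43: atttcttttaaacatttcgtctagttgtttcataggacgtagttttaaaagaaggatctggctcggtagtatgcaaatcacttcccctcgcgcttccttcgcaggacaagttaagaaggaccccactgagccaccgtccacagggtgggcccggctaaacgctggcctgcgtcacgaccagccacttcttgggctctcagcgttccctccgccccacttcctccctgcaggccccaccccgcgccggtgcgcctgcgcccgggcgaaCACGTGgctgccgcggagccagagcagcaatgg
Mybbp1a: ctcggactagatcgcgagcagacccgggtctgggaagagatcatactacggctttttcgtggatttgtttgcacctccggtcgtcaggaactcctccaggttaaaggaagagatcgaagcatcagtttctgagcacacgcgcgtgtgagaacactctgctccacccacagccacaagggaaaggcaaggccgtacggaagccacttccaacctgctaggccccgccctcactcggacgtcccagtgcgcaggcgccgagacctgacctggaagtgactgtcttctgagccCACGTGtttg
Nop2: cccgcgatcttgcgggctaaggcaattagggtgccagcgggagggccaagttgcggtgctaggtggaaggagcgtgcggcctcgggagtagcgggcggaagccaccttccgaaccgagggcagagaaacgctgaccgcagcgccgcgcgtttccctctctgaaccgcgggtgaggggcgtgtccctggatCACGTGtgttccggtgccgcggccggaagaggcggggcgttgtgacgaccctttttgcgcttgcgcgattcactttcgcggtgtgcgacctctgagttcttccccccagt
Pa2g4: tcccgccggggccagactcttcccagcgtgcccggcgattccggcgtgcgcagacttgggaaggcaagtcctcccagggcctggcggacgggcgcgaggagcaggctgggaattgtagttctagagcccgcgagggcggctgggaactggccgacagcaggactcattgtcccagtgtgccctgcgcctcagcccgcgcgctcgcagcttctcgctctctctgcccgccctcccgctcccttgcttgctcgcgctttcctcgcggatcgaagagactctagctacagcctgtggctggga
The E-box begins 28 bases from the start in Pus7, 17 in Wdr43 and 40 in Mybbp1a, and 60 bases before it in Nop2. Of the 40 members 35 had a window in the RefSeq table, and 7 of these (20%) held CACGTG, which reads the same on both strands. The others were Utp20, Pes1 and Utp18, which were not called between WT FrC and FrD. Of the members called lower in that step 11 had a window, and only 4 of the 11 held CACGTG. These 4 were picked for display because they hold it. The share with CACGTG was 18.5% of 124 other genes of the pathway and 8.09% of all 27025 genes with a window. The ETS-family motif CCGGAAGT, searched on both strands, was in 8 of the 35 (22.9%), against 24.2% of the same 124 other pathway genes and 4.31% of all genes. These matches are letters in a window, not evidence of binding.

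Most members had their peak in FrC and their low in FrD in WT cells. By mean CPM, 35 of the 40 were highest in WT FrC and 35 were lowest in WT FrD. Summed over the 40 genes, mutant libraries held 6128 to 8639.6 CPM in FrB, 7776 to 9672 in FrC, 2773 to 3732 in FrD and 3048 to 4061 in FrE. WT libraries held 4946 to 6378.5 CPM in FrB, 6672 to 9583 in FrC, 2509.5 to 3480.3 in FrD and 3536.5 to 5063 in FrE. By this sum, every FrC library lay above every FrD library in both genotypes. Member by member the mutant mice were less alike. In FrD relative to FrC of the same mouse, 39, 35, 39, 10 and 20 of the 40 members were lower in mutant mice 4, 5, 8, 9 and 10, against 39, 38, 35, 39 and 36 in WT mice 1, 2, 3, 6 and 7. The median difference in log2(CPM + 1) over members was 2.77 in mutant mouse 9 and -0.131 in mutant mouse 10, and it lay between -1.74 and -1.46 in the other 3 mutant mice and between -2.64 and -1.46 in the WT mice.

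**Figure D1:**
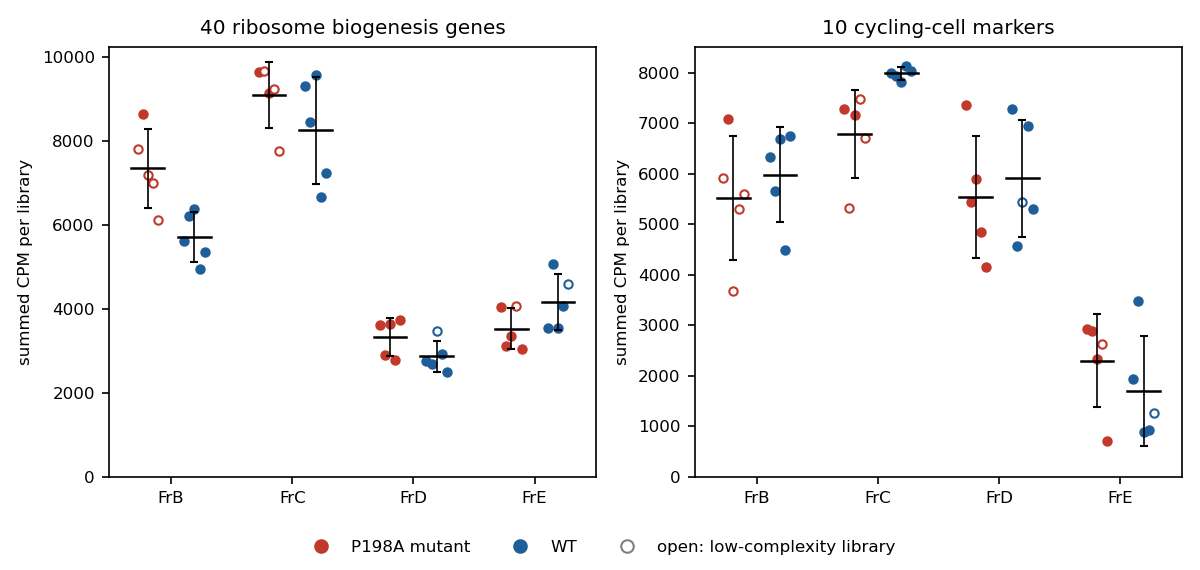
Summed CPM per library of the 40 ribosome biogenesis genes (left) and of 10 cycling-cell markers (right), by fraction; mutant red, WT blue, low-complexity libraries open, with the mean and SD of 5 libraries. The gene sum falls between FrC and FrD, where WT cycling markers run from 4568 to 7288 CPM in FrD and from 7809.5 to 8129.9 CPM in FrC, and the cycling sum is lowest in FrE.

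Levels of different members spanned a wide range. Compared per kilobase of merged exons, Npm1 (nucleophosmin, a chaperone of ribosome assembly and one of the most abundant nucleolar proteins) was highest in WT FrC at 807 ± 143 CPM per kb (SD, n = 5). Next came Nhp2 and Nop10, small core proteins of the box H/ACA snoRNPs, at 446 ± 78.7 and 369 ± 62.2 CPM per kb, and Pa2g4, a growth-regulated nucleolar protein, at 294 ± 60.2. Nhp2 and Nop10 differed by less than the SD of Nhp2, so their order is not firm. The lowest were Polr1a, the largest subunit of RNA polymerase I, at 1.96 CPM per kb, and Rrp12, a small subunit export factor, at 1.85. Fbl, the methyltransferase of the box C/D snoRNP, stood at 2.87 CPM per kb, against 76.8 for its partner Nop56 and 20.8 for Nop58. Counted over the exons of basic transcripts alone, Fbl reached 10.1 CPM per kb and ranked 33 of the 40, against 165 for Nop56 and 23.4 for Nop58. Npm1 and Ncl, the abundant RNA-binding protein nucleolin, together made up 34.3% to 63.5% of the summed CPM in mutant FrC libraries and 34.6% to 40.4% in WT FrC libraries.

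The step from FrB to FrC in WT mice left 38 of the 40 members above 0 on the log2 scale, with a median fold change of 0.48, against 0.01 for all genes tested. No member passed the threshold in edgeR's quasi-likelihood test (Benjamini-Hochberg adjusted p under 0.05), and 2 had an unadjusted p under 0.05. DESeq2 called no member and 143 of all 11439 genes. Of all genes 0.166% passed in edgeR in this step. By role, the members of lowest p were Pa2g4 (0.7 ± 0.28 SE), Noc2l of the large subunit path (1.16 ± 0.8), Rrp9 (0.98 ± 0.7), Utp20 (1.03 ± 0.8), Gar1 (0.83 ± 0.73) and Polr1b (0.46 ± 1.06). The summed CPM was higher in FrC in each of the 5 WT mice, 1.35 to 1.66 times that of FrB. Scaled to ERCC counts, the member median was 1.23 against 0.74 for all genes. Markers of other cells moved in the same step. Plasma cell markers summed to 1165.6 to 10841 CPM in WT FrC and 17573 to 52746 CPM in WT FrB, with 2 of 7 called lower and a median of -2.57. Immature and mature B cell markers had 2 of 10 called lower (median -1.67), and granulocyte and monocyte markers had none of 10 called (median -4.59). Their part in the member values was not tested. Of the 145 other pathway genes tested none was called, with 117 above 0 and a median of 0.21; Exosc5 (0.59 ± 0.26), Nop9 (0.66 ± 0.36) and Rrp1 (0.83 ± 0.46) had the lowest p. Mycn (1.01), Ubtf (0.55), Myc (0.4) and Rrn3 (-0.03) were not called.

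Between WT FrC and WT FrD 12 of the 40 members fell, and 28 did not pass the test. All 40 had a negative fold change (38 with RLE size factors or DESeq2), with a median of -1.39 on the log2 scale, against 0.095 for all genes. None was called higher, and 2.28% of all genes tested were called lower, against the 12 of 40 members. The summed CPM of FrD was 0.296 to 0.44 of that of FrC in the same 5 WT mice. The largest share by role was among the nucleolar proteins, with 5 of 7 called lower (median -2.13): Pa2g4, Npm1, Ddx21 (an RNA helicase of ribosomal RNA synthesis), Mybbp1a (a Myb-binding nucleolar protein) and Gnl3 (nucleostemin, a nucleolar GTPase). Called lower among the large subunit factors were 3 of 11 (Nop16, Noc2l and Nop2, a ribosomal RNA methyltransferase). Among the genes of the box H/ACA snoRNPs and pseudouridylation 2 of 6 were called lower, Shq1 of the first kind and Pus7 of the second. Among the small subunit factors 1 of 9 was called lower (Wdr43) and among the box C/D genes 1 of 4 (Rrp9). None of the 3 RNA polymerase I subunits was called.

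**Figure D2:**
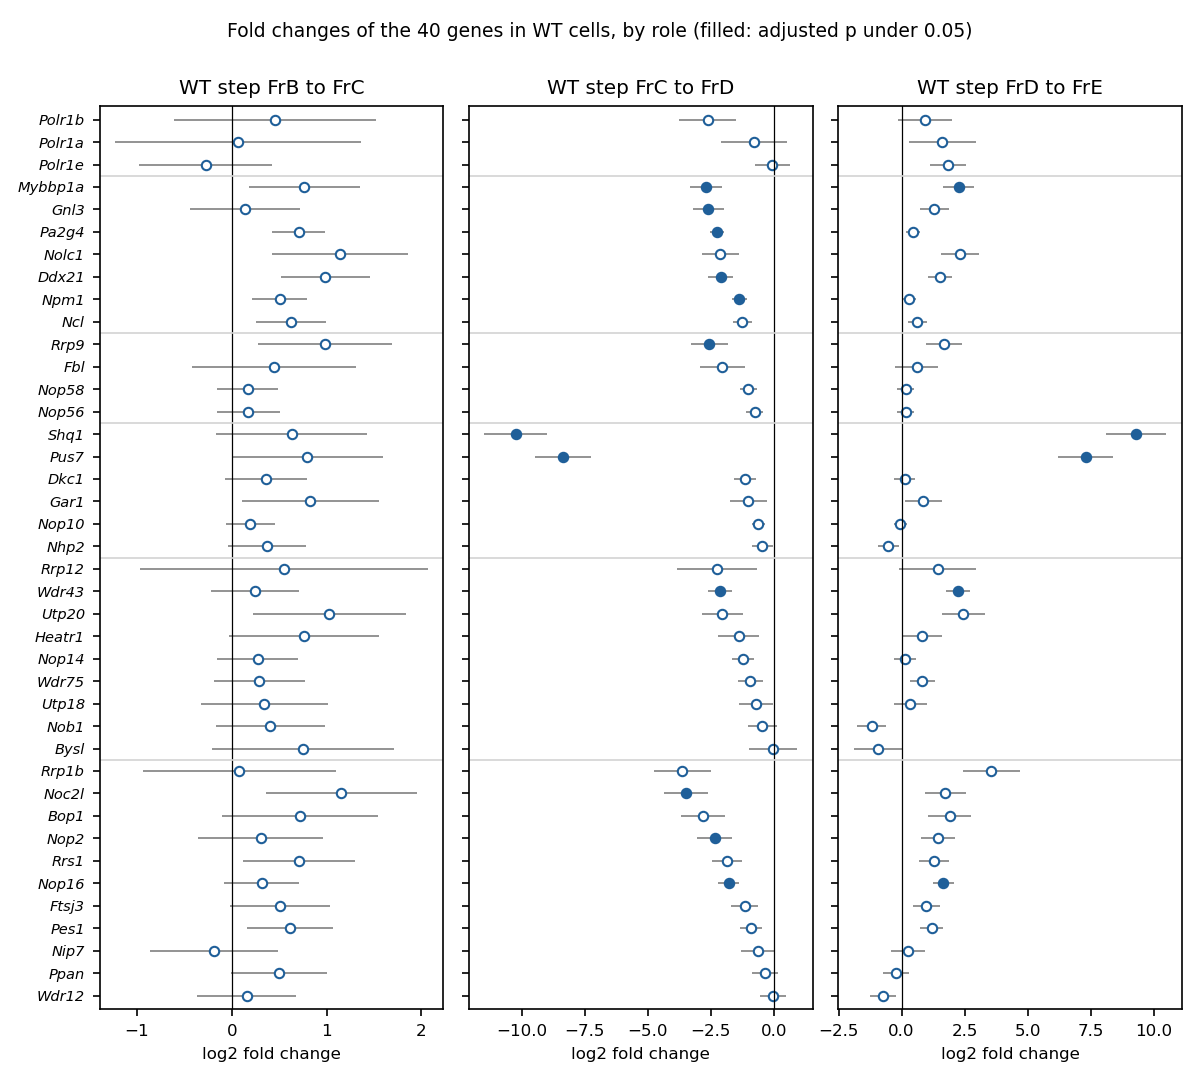
Log2 fold changes with SE of the 40 genes in the 3 steps between consecutive WT fractions (n = 5 libraries a fraction), grouped by role from RNA polymerase I at the top to large subunit factors at the bottom; filled points have an adjusted p under 0.05. All 40 lie below 0 in the step from FrC to FrD, and 34 lie above 0 in the step from FrD to FrE; the horizontal scales differ.

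Pa2g4 had the lowest p among the nucleolar proteins. Pa2g4 (ENSMUSG00000025364) lies on chromosome 10 from 128557766 to 128565987, minus strand. In FrB, Pa2g4 had 532, 559.6, 530.4, 366 and 518 CPM in mutant libraries, against 471, 597, 534, 305 and 499 CPM in WT libraries. In FrC, Pa2g4 had 934, 439, 857, 12.8 and 627 CPM in mutant libraries, against 929.9, 873, 1023, 639 and 661 CPM in WT libraries. Pa2g4 overlapped between the genotypes in both fractions, and the highest of these 20 libraries was FrC of WT mouse 3. In FrD, Pa2g4 had 209, 151, 242, 215 and 264 CPM in mutant libraries, against 148, 161, 103, 204 and 124 CPM in WT libraries. In FrE, Pa2g4 had 182, 142, 167, 237 and 144 CPM in mutant libraries, against 138, 346, 121, 289.8 and 153 CPM in WT libraries. Pa2g4 overlapped between the genotypes in both fractions, and the highest of these 20 libraries was FrE of WT mouse 2. All WT FrD libraries lay below all WT FrC libraries, a fall of 2.26 ± 0.29 on the log2 scale (SE; edgeR adjusted p = 5.83e-05). Mutant mouse 9 had almost no Pa2g4 in FrC, and the other 4 mutant FrC libraries lay above every mutant FrD library.

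Wdr43, a small subunit processome protein, (ENSMUSG00000041057) lies on chromosome 17 from 71615895 to 71659031, plus strand. In FrB, Wdr43 had 258, 167, 196, 474 and 124 CPM in mutant libraries, against 107, 181, 128, 98.5 and 113 CPM in WT libraries. In FrC, Wdr43 had 184, 191, 185, 69.1 and 191 CPM in mutant libraries, against 222, 156, 196, 119.8 and 93.6 CPM in WT libraries. Wdr43 overlapped between the genotypes in both fractions, and the highest of these 20 libraries was FrB of mutant mouse 9. In FrD, Wdr43 had 35.5, 15.7, 37.9, 108 and 75.7 CPM in mutant libraries, against 18.4, 34.1, 11.1, 78.2 and 15.9 CPM in WT libraries. In FrE, Wdr43 had 107, 28.7, 92.7, 119 and 94.3 CPM in mutant libraries, against 77.8, 105, 83.1, 153 and 278 CPM in WT libraries. Wdr43 overlapped between the genotypes in both fractions, and the highest of these 20 libraries was FrE of WT mouse 7. WT FrD and WT FrC libraries did not overlap, and the fold change was -2.15 ± 0.48 (edgeR adjusted p = 0.0101). Its rise in WT FrE over WT FrD was 2.23 ± 0.49 (edgeR adjusted p = 0.00859), with 1 WT FrE library just under the highest WT FrD library.

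Nop16, a large subunit assembly factor, (ENSMUSG00000025869) lies on chromosome 13 from 54584185 to 54590090, minus strand. In FrB, Nop16 had 92.2, 245, 223, 129 and 254 CPM in mutant libraries, against 217, 212, 209, 109 and 121 CPM in WT libraries. In FrC, Nop16 had 277, 80.2, 191, 6.96 and 134 CPM in mutant libraries, against 266, 298, 247, 149.9 and 178 CPM in WT libraries. Nop16 overlapped between the genotypes in both fractions, and the highest of these 20 libraries was FrC of WT mouse 2. In FrD, Nop16 had 89.3, 55.7, 85.9, 33.5 and 99.2 CPM in mutant libraries, against 55.1, 61.9, 10.2, 58.1 and 105 CPM in WT libraries. In FrE, Nop16 had 141, 41.6, 113, 309 and 89.95 CPM in mutant libraries, against 205, 157, 203, 107 and 214 CPM in WT libraries. Nop16 overlapped between the genotypes in both fractions, and the highest of these 20 libraries was FrE of mutant mouse 9. In WT mice the FrD libraries lay below both the FrC and the FrE libraries, with no overlap. The change was -1.79 ± 0.41 into FrD (edgeR adjusted p = 0.0107) and 1.66 ± 0.41 out of it (edgeR adjusted p = 0.019).

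Rrp9, the U3 snoRNP protein that binds the U3 RNA, (ENSMUSG00000041506) lies on chromosome 9 from 106475963 to 106485424, plus strand. In FrB, Rrp9 had 108, 25.5, 45.8, 76 and 9.02 CPM in mutant libraries, against 23.6, 17.4, 36.5, 16.6 and 36.9 CPM in WT libraries. In FrC, Rrp9 had 87.2, 46.2, 59.1, 1.16 and 110.5 CPM in mutant libraries, against 58.1, 46.2, 79.5, 50.9 and 37.3 CPM in WT libraries. Rrp9 overlapped between the genotypes in both fractions, and the highest of these 20 libraries was FrC of mutant mouse 10. In FrD, Rrp9 had 2.6, 19.7, 17.6, 28.1 and 0.76 CPM in mutant libraries, against 14.5, 11.7, 0.63, 12.4 and 2.15 CPM in WT libraries. In FrE, Rrp9 had 49.8, 6.41, 2.42, 0 and 21.2 CPM in mutant libraries, against 6.09, 5.75, 18.1, 68.2 and 34.4 CPM in WT libraries. Rrp9 overlapped between the genotypes in both fractions, and the highest of these 20 libraries was FrE of WT mouse 6. WT FrD libraries all lay below WT FrC libraries (-2.57 ± 0.74, edgeR adjusted p = 0.0421). With the mouse as a block the edgeR adjusted p was 0.088, and with no count filter it was 0.0658. Rrp9 was called in none of the 5 fits that leave out 1 WT mouse (edgeR adjusted p from 0.0772 to 0.13).

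Shq1, the chaperone that assembles the box H/ACA core with dyskerin, nearly vanished from WT FrD. Shq1 (ENSMUSG00000035378) lies on chromosome 6 from 100568256 to 100671157, minus strand. In FrB, Shq1 had 33.8, 16.6, 0.4, 11.9 and 3.1 CPM in mutant libraries, against 10.7, 23.1, 17.8, 5.85 and 17.7 CPM in WT libraries. In FrC, Shq1 had 12.7, 1.1, 28.4, 0 and 1.85 CPM in mutant libraries, against 29.7, 23.1, 39.95, 18 and 11.3 CPM in WT libraries. Shq1 overlapped between the genotypes in both fractions, and the highest of these 20 libraries was FrC of WT mouse 3. In FrD, Shq1 had 4.09, 0, 2.55, 18.1 and 11.1 CPM in mutant libraries, against 0, 0, 0, 0.05 and 0 CPM in WT libraries. In FrE, Shq1 had 5.86, 35.9, 0, 23.8 and 0.05 CPM in mutant libraries, against 8.03, 11.9, 24.4, 13.2 and 0.7 CPM in WT libraries. Shq1 overlapped between the genotypes in both fractions, and the highest of these 20 libraries was FrE of mutant mouse 5. The 5 WT FrD libraries held 1 count in all, in mouse 6, against 1848 counts in WT FrC. Scaled to library totals, the WT FrD level was lower than that of WT FrC 2303-fold, with a 95% counting interval of 413 to 91025. Mutant FrD libraries were not empty: 4 of 5 held between 50 and 787 counts and mouse 5 held 0.

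Pus7, a pseudouridine synthase, also had its low in WT FrD. In mutant mice Pus7 averaged 51.6 ± 16.5 CPM in FrC, 3.29 ± 2.77 in FrD and 8.11 ± 9.32 in FrE (SD, n = 5 each). In WT mice it averaged 45.97 ± 15.2 CPM in FrC, 0.13 ± 0.14 in FrD and 18.3 ± 16.9 in FrE. WT FrD held 9 counts over 5 libraries, lower than WT FrC 484-fold (95% counting interval 254 to 1058). The fitted log2 fold changes of Shq1 and Pus7 into WT FrD, -10.25 ± 1.24 and -8.37 ± 1.13 (edgeR adjusted p = 2.66e-05 and 0.000106), depend on the prior count that the fit adds to so few counts.

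Polr1b, the catalytic-core partner of the largest subunit of RNA polymerase I, (ENSMUSG00000027395) lies on chromosome 2 from 129100995 to 129126594, plus strand. In FrB, Polr1b had 13.6, 55.9, 23.7, 107 and 11.6 CPM in mutant libraries, against 38.9, 18.6, 31.1, 18.1 and 33.1 CPM in WT libraries. In FrC, Polr1b had 78.2, 7.52, 48.6, 1.16 and 0.41 CPM in mutant libraries, against 45.9, 58.3, 43.3, 29.2 and 24.3 CPM in WT libraries. Polr1b overlapped between the genotypes in both fractions, and the highest of these 20 libraries was FrB of mutant mouse 9. In FrD, Polr1b had 35.1, 7.03, 0.77, 19.2 and 14.8 CPM in mutant libraries, against 1.01, 26.5, 1.26, 0.15 and 0.67 CPM in WT libraries. In FrE, Polr1b had 0.76, 4.97, 17.5, 23.8 and 0.9 CPM in mutant libraries, against 10.1, 0.49, 0.37, 28.7 and 15.5 CPM in WT libraries. Polr1b overlapped between the genotypes in both fractions, and the highest of these 20 libraries was FrD of mutant mouse 4. In WT FrD it was near 1 CPM or less in 4 mice, and mouse 2 alone reached the WT FrC range. The difference did not pass the test (-2.62 ± 1.13, edgeR adjusted p = 0.183).

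The remaining members called lower in WT FrD were given by their group levels. Npm1 averaged 681 ± 106 CPM in WT FrD and 2151 ± 380 CPM in WT FrC (SD, n = 5 each). Gnl3 averaged 39.9 ± 27.1 CPM in WT FrD against 269.9 ± 109 in WT FrC, and Ddx21 30.4 ± 22.6 in WT FrD against 149.8 ± 25.8 in WT FrC. Mybbp1a averaged 9.11 ± 4.2 CPM in WT FrD against 73.3 ± 19.1 in WT FrC, Noc2l 5.56 ± 5.33 in WT FrD against 68.8 ± 22.5 in WT FrC, and Nop2 10.8 ± 4.71 in WT FrD against 62.9 ± 31.4 in WT FrC. The smallest changes were those of Bysl (-0.03), Wdr12 (-0.04) and Polr1e (-0.06), none called. Bysl shares exon bases with Ccnd3 on the other strand, and 16 of the 40 members share bases with such a gene. Among them are Wdr43, Mybbp1a, Gnl3, Rrp9 and Noc2l, called lower in this step, and Rrp1b, Bop1 and Wdr12, given by library below. With the strand setting not given, reads of the 16 members cannot be told apart from those of the genes they overlap.

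**Figure D3:**
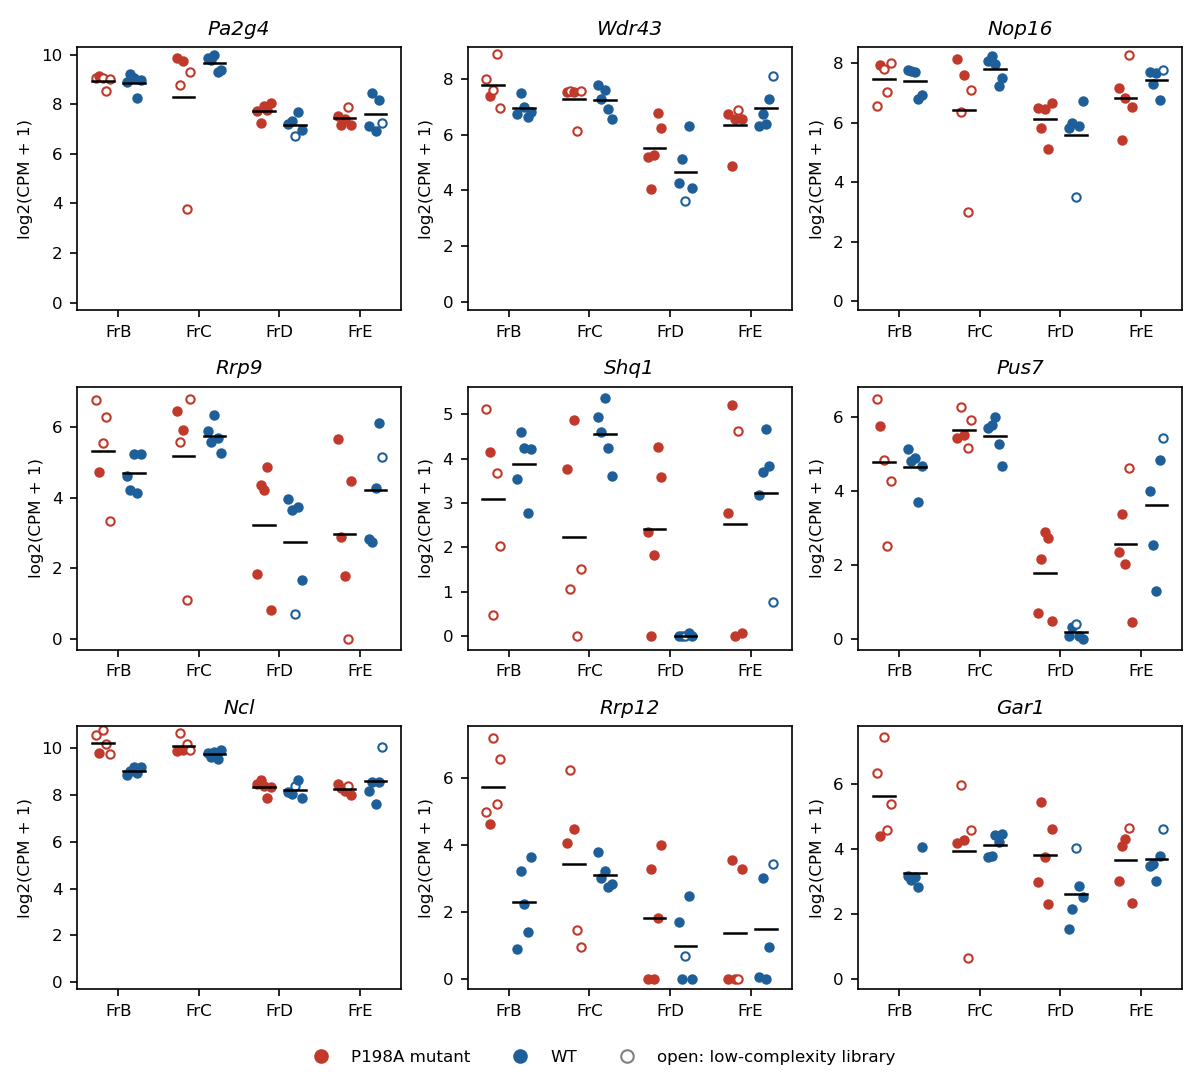
Level of 9 members in each library as log2(CPM + 1), by fraction, mutant (red) left of WT (blue), low-complexity libraries open, bars at the mean of 5 libraries. In WT FrD, Shq1 and Pus7 sit at or near 0, while Ncl, Rrp12 and Gar1 in FrB have all 5 mutant libraries above all 5 WT libraries.

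For the rest of the pathway, of 150 other genes of ribosome production 145 were tested. Of these 103 lay below 0 and 42 above, with a median of -0.39. None was called higher and 4 were called lower, near the share of all genes called lower (2.28%). These 4 were Exosc5 (-1.42 ± 0.27, edgeR adjusted p = 0.00237) and Dis3 (-2.18) of the RNA exosome, Mrto4 (-2.32) of the large subunit path and Ruvbl2 (-2.07) of snoRNP assembly. By list, the median was 0.26 for 18 other polymerase I genes, -0.47 for 9 snoRNP factors, -0.68 for 47 small subunit factors, -0.44 for 49 large subunit factors and -0.44 for 22 exosome and RNase MRP genes. Among 7 regulators tested, Myc and Lyar, a growth-related nucleolar protein, were called lower (-6.02 ± 0.98 and -1.97 ± 0.4, edgeR adjusted p = 0.000763 and 0.00471). Myc averaged 4.24 ± 6.54 CPM in WT FrD against 307 ± 93.3 CPM in WT FrC. Mycn (-4.78 ± 2.05), Ubtf, the polymerase I activator (1.2 ± 0.8), and Rrn3, the polymerase I initiation factor (0.22 ± 0.37), were not called.

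Other values moved in the same step. Spike-in RNA gave a larger fall than CPM: the members had 0.32 to 2.59 counts per ERCC count in WT FrD and 5.47 to 29.59 in WT FrC, again without overlap. Scaled to ERCC counts, 38 of the 40 members were called lower, but 6636 of all 11439 genes were called in either direction. The median of all genes itself shifted to -2.39 and that of the members to -3.82. The 10 cycling-cell markers had a median of -0.31 in this step with none called. Pro-B and large pre-B markers summed to 3788 to 5772 CPM in WT FrC and 496 to 2051 CPM in WT FrD, without overlap. Those of immature and mature B cells summed to 2335 to 4121 CPM in WT FrC and 1673 to 11377 CPM in WT FrD. Erythroid markers summed to 1115 to 6761 CPM in WT FrC and 146 to 32723 CPM in WT FrD. Those of plasma cells summed to 1165.6 to 10841 CPM in WT FrC and 1335.6 to 1735.8 CPM in WT FrD. Granulocyte and monocyte markers summed to 46.5 to 74802 CPM in WT FrD and 57.6 to 871 CPM in WT FrC; none of the 10 tested was called. The part of all these markers in the member changes was not tested. The highest granulocyte and monocyte sum was in the low-complexity FrD library of WT mouse 3. Without the low-complexity WT libraries, FrD of mouse 3 and FrE of mouse 7, 25 members were called lower. In that fit 1874 of all 11657 genes were called either way. Leaving out WT mouse 1 left 3 members called (Shq1, Pa2g4 and Pus7) and leaving out WT mouse 2 left 6, with member medians of -1.31 and -1.5. Of all genes, 188 of 11522 and 237 of 11528 were called in these 2 fits. Without WT mouse 2, Polr1b was called lower (edgeR adjusted p = 0.0202). With the mouse as a block 11 members were called: Nop2 (edgeR adjusted p = 0.119) and Rrp9 no longer passed, and Bop1 did (0.0457, against 0.0595 without the block). In the blocked fit 445 of all 11439 genes were called either way.

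Between WT FrD and WT FrE several members rose. Of the 40 members 34 lay above 0, with a median of 0.95 against 0.01 for all genes, and 5 were called higher: Shq1 (9.3 ± 1.21), Pus7 (7.3 ± 1.09), Wdr43, Nop16 and Mybbp1a (2.26 ± 0.61, edgeR adjusted p = 0.0331). Of all genes 2.88% were called higher. These 5 were also among the 12 called lower one step earlier; both steps share the WT FrD libraries, so the counts are not independent. With the mouse as a block, Mybbp1a had an adjusted p of 0.129, and without WT mouse 1 only Shq1, Pus7 and Wdr43 were called. The members of lowest p in the other roles were Polr1e, a polymerase I subunit (1.84 ± 0.72), and Rrp9 (1.68 ± 0.72), neither called. The 5 WT mice had summed FrE levels 1.02 to 1.88 times their FrD levels, with mouse 3 lowest. WT FrE remained under WT FrC in every library.

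Of the 10 cycling markers 6 were called lower in that step, with a median of -1.61. Plasma cell markers summed to 1185.9 to 23520 CPM in WT FrE and 1335.6 to 1735.8 CPM in WT FrD, with 3 of 7 called higher, 1 lower and a median of 1.45. Immature and mature B cell markers had 5 of 10 called higher (median 2.33), and pro-B and large pre-B markers had 4 of 10 called lower (median -3.27). Granulocyte and monocyte markers had a median of -5.48 with none called. The part of these markers in the member changes was not tested. Other pathway genes split evenly, 79 above 0 and 66 below, with a median of 0.08 and 1 called, Snu13 of the box C/D core (-1.45 ± 0.33, edgeR adjusted p = 0.0108). Myc was called higher (3.73 ± 0.88, edgeR adjusted p = 0.0156), at 58.7 ± 45.5 CPM in WT FrE and 4.24 ± 6.54 CPM in WT FrD. Sdad1 (2.9 ± 0.89) and Cd3eap, a polymerase I subunit (4.62 ± 1.43), had the next lowest p and were not called, nor were Mycn (-3.4), Rrn3 (-0.18) or Ubtf (-0.08).

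The genotypes were then compared within each fraction, 5 mutant against 5 WT libraries. In FrB, 32 of the 40 members lay above 0, with a median of 0.72 against 0.11 for all genes. The mean of log2(CPM + 1) over libraries gave a median difference of only 0.076, with 23 members above 0 and 17 below. The 3 called members were all higher in mutant FrB, Ncl, Rrp12 and Gar1; 7.37% of all genes were called there in either direction, so 3 of 40 is near the background. Summed member CPM was 6128 to 8639.6 in mutant FrB and 4946 to 6378.5 in WT FrB, with 1 mutant library, mouse 10, inside the WT range.

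Ncl (ENSMUSG00000026234) lies on chromosome 1 from 86344719 to 86359400, minus strand. In FrB, Ncl had 1520.00, 878, 1765, 1149 and 864 CPM in mutant libraries, against 459, 521, 590.3, 487 and 581 CPM in WT libraries. In FrC, Ncl had 938, 1622, 983, 1155 and 959.7 CPM in mutant libraries, against 901, 781, 918, 734 and 977 CPM in WT libraries. Ncl did not overlap in FrB, where every mutant library lay above every WT library, and overlapped in FrC. In FrD, Ncl had 349.5, 395, 335, 232 and 323 CPM in mutant libraries, against 277, 267, 333, 396 and 231 CPM in WT libraries. In FrE, Ncl had 356, 312, 287, 332 and 253 CPM in mutant libraries, against 288, 379, 197, 379 and 1052 CPM in WT libraries. Ncl overlapped between the genotypes in both fractions, and the highest of these 20 libraries was FrE of WT mouse 7. The log2 difference in FrB was 1.65 ± 0.34 (SE; edgeR adjusted p = 0.0113). In FrE the highest Ncl value was that of WT mouse 7, a low-complexity library.

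Rrp12 (ENSMUSG00000035049) lies on chromosome 19 from 41862851 to 41896173, minus strand. In FrB, Rrp12 had 31.1, 24, 146, 36.2 and 94.5 CPM in mutant libraries, against 0.88, 8.41, 3.76, 1.66 and 11.6 CPM in WT libraries. In FrC, Rrp12 had 15.8, 74.9, 21.5, 1.74 and 0.93 CPM in mutant libraries, against 13, 7.06, 8.32, 5.7 and 6.12 CPM in WT libraries. Rrp12 did not overlap in FrB, where every mutant library lay above every WT library, and overlapped in FrC. In FrD, Rrp12 had 0, 8.69, 0, 2.56 and 15.2 CPM in mutant libraries, against 2.27, 0, 0.63, 4.54 and 0 CPM in WT libraries. In FrE, Rrp12 had 0, 10.8, 0, 0 and 8.83 CPM in mutant libraries, against 0.04, 7.17, 0, 0.94 and 9.94 CPM in WT libraries. Rrp12 overlapped between the genotypes in both fractions, and the highest of these 20 libraries was FrD of mutant mouse 10. The difference in FrB was 4.21 ± 0.94 (edgeR adjusted p = 0.0155). Over FrD and FrE, 5 mutant and 3 WT libraries had no Rrp12 count.

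Gar1, a core protein of the box H/ACA snoRNPs, (ENSMUSG00000028010) lies on chromosome 3 from 129824912 to 129831396, minus strand. In FrB, Gar1 had 78.6, 20.01, 171, 22.7 and 40.8 CPM in mutant libraries, against 7.99, 7.28, 7.83, 6.14 and 15.8 CPM in WT libraries. In FrC, Gar1 had 17.2, 61.6, 18.4, 0.58 and 23 CPM in mutant libraries, against 12.6, 12.9, 20.6, 17.4 and 20.9 CPM in WT libraries. Gar1 did not overlap in FrB, where every mutant library lay above every WT library, and overlapped in FrC. In FrD, Gar1 had 6.88, 42.3, 12.5, 4.01 and 23.6 CPM in mutant libraries, against 1.95, 3.47, 15.2, 6.22 and 4.72 CPM in WT libraries. In FrE, Gar1 had 7.13, 15.9, 19, 23.8 and 4.02 CPM in mutant libraries, against 10.04, 10.5, 7.04, 12.9 and 23.2 CPM in WT libraries. Gar1 overlapped between the genotypes in both fractions, and the highest of these 20 libraries was FrD of mutant mouse 5. The difference in FrB was 3.49 ± 0.82 (edgeR adjusted p = 0.0191), and it missed the threshold without WT mouse 1, 2, 3 or 6 (edgeR adjusted p between 0.0582 and 0.0641).

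Many of these FrB libraries were of low complexity. Of the 5 mutant FrB libraries 4 were low-complexity, and with the other, mouse 5, as the sole mutant library none of the 3 was called (Ncl 0.67, Rrp12 2.14, Gar1 1.1; edgeR adjusted p = 0.216, 0.436 and 0.611). In that fit the lone library is assumed to vary like the WT ones. The second-index primers split the libraries into sets of 2 mutant and 3 WT mice and of 3 mutant and 2 WT mice; with the set as a covariate only Ncl was called. Without mutant mouse 5 the number of members called was 9 (8 higher, 1 lower), while 1937 of all 10772 genes tested were called. Without mouse 8 it was 6 members, with 1035 of 10905 genes called. Without mouse 9 or 10 it was 5 members, with 689 of 10894 and 685 of 10885 genes called. Mutant FrB also differed in markers of other cells. Granulocyte and monocyte markers summed to 2548 to 57969 CPM in mutant FrB and 125.5 to 11514 CPM in WT FrB, with 12 of 12 above 0 and 2 called higher, and markers of immature and mature B cells summed to 791 to 2181 CPM in mutant FrB and 7296 to 11696 CPM in WT FrB, with 6 of 10 called lower. Plasma cell markers summed to 946 to 12804 CPM in mutant FrB and 17573 to 52746 CPM in WT FrB, without overlap, with 1 of 7 called lower and a median of -1.96. Of the cycling markers 4 of 10 were called higher (median -0.14), of the pro-B and large pre-B markers 3 of 10 were called higher (median -0.06), and of the erythroid markers 1 of 8 was called lower (median -1.33). The part of these markers in the member differences was not tested.

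Members not called in FrB included, as lowest p of their roles, Ftsj3 of the large subunit path (1.91 ± 0.57), Polr1a (2.95 ± 0.89) and Rrp9 (1.38 ± 0.7). Of 145 other pathway genes tested in FrB 6 were called higher and 1 lower, against 7.37% of all genes called either way, with a median of 0.04. Ubtf led with 2.77 ± 0.53 (edgeR adjusted p = 0.00834), followed by Bms1, a small subunit GTPase (2.6 ± 0.59), and Polr2f, a subunit shared by the RNA polymerases (1.9 ± 0.47). Myc (-1.11 ± 0.63) and Rrn3 (-1.25 ± 0.92) were not called, and Mycn was under the count filter there, as in FrD and FrE.

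In FrC no member was called in edgeR, as was true of all genes (0% called of 10299). There 4 members had an unadjusted p under 0.05. DESeq2 called no member and 174 of all 10299 genes. The member median was 0.33, with 30 above 0 and 10 below, against 0.09 for all genes. The mean of log2(CPM + 1) over libraries gave the opposite sign, a median difference of -0.82 with only 8 members above 0. In mutant mouse 9, whose FrC library was the second shallowest, Npm1 stood at 4717 CPM and Pa2g4 at 12.8 CPM. Granulocyte and monocyte markers summed to 36.5 to 29970.0 CPM in mutant FrC and 57.6 to 871 CPM in WT FrC. In the FrC library of mutant mouse 9 they summed to 306.4 CPM, while erythroid markers summed to 80154 CPM there, 2874.1 CPM in the next highest mutant FrC library and 1115.1 to 6760.8 CPM in WT FrC. The part of these markers in the FrC values was not tested.

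Rrp1b, a nucleolar protein of the large subunit path, had the lowest p (4.26 ± 1.28, edgeR adjusted p = 0.271). Rrp1b (ENSMUSG00000058392) lies on chromosome 17 from 32036100 to 32062865, plus strand. In FrB, Rrp1b had 19.6, 9.64, 140.1, 23.6 and 67.2 CPM in mutant libraries, against 33.6, 30.01, 41.3, 25.7 and 40.4 CPM in WT libraries. In FrC, Rrp1b had 42.7, 37.9, 13.3, 446 and 108 CPM in mutant libraries, against 32.1, 24.6, 49.9, 49.3 and 34.9 CPM in WT libraries. Rrp1b overlapped between the genotypes in both fractions, and the highest of these 20 libraries was FrC of mutant mouse 9. In FrD, Rrp1b had 29.5, 0.28, 14.1, 4.89 and 4.37 CPM in mutant libraries, against 9.21, 0, 0.16, 4.2 and 0 CPM in WT libraries. In FrE, Rrp1b had 6.88, 0, 1.4, 0 and 6.29 CPM in mutant libraries, against 49.7, 28, 10.8, 9 and 51.3 CPM in WT libraries. Rrp1b overlapped in FrD, and in FrE the mutant libraries of mice 4, 5, 8 and 10 lay below every WT library. In FrE the count of 0 in mutant mouse 9 allows up to 71.2 CPM, so that library cannot be placed relative to WT. Mutant mouse 9 had the highest FrC value, and without the low-complexity libraries the difference was -0.44.

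Nip7, which acts with other factors on the large subunit precursor, followed (3.91 ± 1.37, edgeR adjusted p = 0.282). Nip7 (ENSMUSG00000031917) lies on chromosome 8 from 107056877 to 107060931, plus strand. In FrB, Nip7 had 37.4, 152, 5.62, 87.3 and 68.1 CPM in mutant libraries, against 168, 167, 166, 153 and 118 CPM in WT libraries. In FrC, Nip7 had 197, 35.4, 127, 1359 and 98.8 CPM in mutant libraries, against 174, 191, 154, 112 and 85.8 CPM in WT libraries. Nip7 overlapped between the genotypes in both fractions, and the highest of these 20 libraries was FrC of mutant mouse 9. In FrD, Nip7 had 118, 95.7, 79, 81.7 and 121 CPM in mutant libraries, against 108, 61.2, 2.35, 138 and 107 CPM in WT libraries. In FrE, Nip7 had 190.4, 75.7, 216, 47.5 and 126 CPM in mutant libraries, against 133, 146, 115, 107 and 2.09 CPM in WT libraries. Nip7 overlapped between the genotypes in both fractions, and the highest of these 20 libraries was FrE of mutant mouse 8. Mutant mouse 9 alone stood at 1359 CPM in FrC, and without that mouse the difference was -0.13. The members of lowest p in the other roles were Nop10 (2.46 ± 0.92), Ncl (1.74 ± 0.8), Rrp12 (1.91 ± 0.92), Nop56 (-0.56 ± 0.56) and Polr1a (0.63 ± 0.81). Among the 145 other pathway genes tested none was called; Pelp1 (4.12 ± 1.02), Polr2l (2.92 ± 0.77) and Utp14a (3.52 ± 0.94) had the lowest p, and Ubtf (1.39), Mycn (1.94), Myc (-0.61) and Rrn3 (-0.07) were not called.

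**Figure D4:**
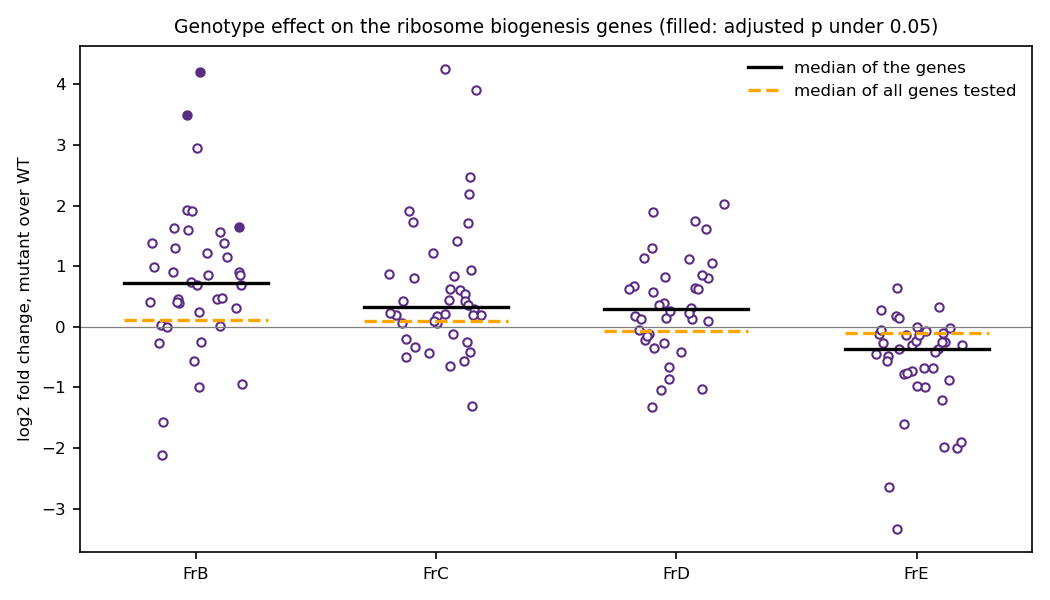
Log2 fold changes of mutant over WT for each tested member in each fraction (40 in FrB, FrC and FrE, 38 in FrD), with the medians of the members (black) and of all genes tested (orange, dashed). Filled points, 3 in FrB only, have an adjusted p under 0.05; the member medians are 0.72, 0.33, 0.29 and -0.37 from FrB to FrE.

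In FrD 38 members were tested, Shq1 and Pus7 being under the count filter, and none was called (0.00996% of all genes called). No member had an unadjusted p under 0.05 in edgeR. DESeq2 called no member and 69 of all 10043 genes. The median was 0.29, with 26 above 0 and 12 below, against -0.07 for all genes. Bop1, which with Pes1 and Wdr12 forms the PeBoW complex of large subunit assembly, came first (2.02 ± 0.96, edgeR adjusted p = 0.931). Bop1 (ENSMUSG00000022557) lies on chromosome 15 from 76452989 to 76477277, minus strand. In FrB, Bop1 had 68.6, 59.4, 4.82, 108 and 47.7 CPM in mutant libraries, against 58.1, 33, 57.6, 16.5 and 45.3 CPM in WT libraries. In FrC, Bop1 had 112, 43.4, 91.7, 2.32 and 125 CPM in mutant libraries, against 66.6, 45.3, 69.3, 138 and 44.3 CPM in WT libraries. Bop1 overlapped between the genotypes in both fractions, and the highest of these 20 libraries was FrC of WT mouse 6. In FrD, Bop1 had 10.7, 35.7, 52.9, 69.5 and 38.2 CPM in mutant libraries, against 6.17, 16.5, 3.14, 19.9 and 0.13 CPM in WT libraries. In FrE, Bop1 had 25.7, 25.2, 54.9, 0 and 53.2 CPM in mutant libraries, against 5.75, 30.3, 13.5, 128 and 9.59 CPM in WT libraries. Bop1 overlapped between the genotypes in both fractions, and the highest of these 20 libraries was FrE of WT mouse 6. In FrD 4 mutant libraries lay above every WT library and mouse 4 lay within the WT range.

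Wdr12, its partner, pointed the other way (-1.33 ± 0.68, edgeR adjusted p = 0.931). Wdr12 (ENSMUSG00000026019) lies on chromosome 1 from 60069785 to 60098645, minus strand. In FrB, Wdr12 had 53.9, 173, 7.63, 128 and 148 CPM in mutant libraries, against 142, 156, 196, 104 and 90.3 CPM in WT libraries. In FrC, Wdr12 had 187, 118, 161, 7.54 and 192 CPM in mutant libraries, against 217, 155, 171, 148 and 122 CPM in WT libraries. Wdr12 overlapped between the genotypes in both fractions, and the highest of these 20 libraries was FrC of WT mouse 1. In FrD, Wdr12 had 74.2, 89.5, 75.3, 9.8 and 57.3 CPM in mutant libraries, against 87, 55.1, 302, 49 and 97 CPM in WT libraries. In FrE, Wdr12 had 59.7, 61.4, 64.4, 166 and 82.4 CPM in mutant libraries, against 141, 105, 79.2, 86.2 and 15.5 CPM in WT libraries. Wdr12 overlapped between the genotypes in both fractions, and the highest of these 20 libraries was FrD of WT mouse 3. The FrD groups overlapped, and the low-complexity WT library of mouse 3 was far above the rest. The lowest p of the other roles belonged to Nhp2 (-0.85 ± 0.5), Mybbp1a (1.14 ± 0.74), Polr1e (-1.03 ± 0.97), Wdr43 (0.63 ± 0.64) and Nop56 (-0.22 ± 0.32). Of 144 other pathway genes tested none was called; Snu13 (-1.01 ± 0.31), Fcf1 (-0.92 ± 0.35) and Znhit6 (-2.69 ± 1.08) had the lowest p, and Myc (2.26 ± 1.19), Ubtf (-1.39) and Rrn3 (-0.43) were not called. Granulocyte and monocyte markers summed to 11857 to 23164 CPM in mutant FrD and 46.5 to 74802 CPM in WT FrD; in FrE they summed to 32.5 to 71274 CPM in mutant libraries and 40.6 to 6176.5 CPM in WT libraries. Their part was not tested.

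In FrE no member was called. Of 40 members 34 lay below 0 and 6 above, with a median of -0.37 against -0.1 for all genes. The mean of log2(CPM + 1) over libraries gave a median difference of only -0.092, with 14 members above 0 and 26 below. Again 0% of all genes were called in edgeR, where 4 members had an unadjusted p under 0.05. DESeq2 called no member and 58 of all 9662 genes. Rrp1b was lowest in p (-3.34 ± 1.27, edgeR adjusted p = 0.87), then Utp20 (-2.64 ± 1.09, edgeR adjusted p = 0.917), a scaffold of the small subunit processome. Utp20 (ENSMUSG00000004356) lies on chromosome 10 from 88746607 to 88826804, minus strand. In FrB, Utp20 had 5.66, 31.5, 7.63, 24.5 and 34.1 CPM in mutant libraries, against 18.9, 11.9, 10.8, 19.4 and 5.23 CPM in WT libraries. In FrC, Utp20 had 21.3, 154, 36.6, 29 and 2.58 CPM in mutant libraries, against 23.2, 24, 34.8, 22.3 and 40.7 CPM in WT libraries. Utp20 overlapped between the genotypes in both fractions, and the highest of these 20 libraries was FrC of mutant mouse 5. In FrD, Utp20 had 8.69, 0.14, 15.7, 16.6 and 31.1 CPM in mutant libraries, against 6.01, 14.2, 0.31, 7.5 and 3.67 CPM in WT libraries. In FrE, Utp20 had 5.25, 3.33, 1.45, 23.8 and 11 CPM in mutant libraries, against 4.46, 9.96, 22.9, 17.5 and 97 CPM in WT libraries. Utp20 overlapped between the genotypes in both fractions, and the highest of these 20 libraries was FrE of WT mouse 7. The FrE groups overlapped, and mutant mouse 9 held 1 count there. The other roles were led by Nolc1, a snoRNP chaperone of the nucleolus (-1.61 ± 0.71), Polr1e (-1 ± 0.6), Pus7 (-2 ± 1.26) and Nop56 (-0.37 ± 0.42). Ddx56 (-1.41 ± 0.6), Taf1d (1.09 ± 0.49) and Emg1 (-1.06 ± 0.49) led the 144 other pathway genes tested, with none called, and Myc (-1.26 ± 0.77), Ubtf (-0.97) and Rrn3 (0.02) were not called.

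With counts summed over the 4 fractions of each mouse, 20 members lay above 0 and 20 below, with a median of 0.00, and none was called; 0.631% of all genes were. In edgeR 3 members had an unadjusted p under 0.05, and DESeq2 called 1. Rrp12 (1.88 ± 0.47, edgeR adjusted p = 0.0879) and Gar1 (0.9 ± 0.38, edgeR adjusted p = 0.257) came first, then by role Mybbp1a (0.53 ± 0.24), Noc2l (0.51 ± 0.26), Nop56 (-0.41 ± 0.22) and Polr1a (0.58 ± 0.34). Of the other pathway genes none was called; Gnl2 (-0.87 ± 0.23), Nmd3 (-0.66 ± 0.2) and Mtrex (-0.55 ± 0.17) had the lowest p, and Myc (-0.69), Ubtf (0.52), Rrn3 (-0.38) and Mycn (-0.19) were not called. Within the index sets (2 mutant and 3 WT mice first, then 3 mutant and 2 WT mice), the median mutant minus WT difference in mean log2(CPM + 1) was 0.27 and 0.08 in FrB, -1.82 and -0.08 in FrC, 0.67 and 0.41 in FrD, and 0.205 and -0.45 in FrE, and the sign differed between the sets in FrE.

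Finally the steps themselves were compared between genotypes, with all 40 libraries in 1 fit. The median step of the members from FrB to FrC was -0.06 in mutant mice and 0.46 in WT mice. From FrC to FrD it was -1.49 in mutant mice and -1.36 in WT mice, and from FrD to FrE it was 0.15 in mutant mice and 0.97 in WT mice. Within mice, the summed CPM of FrC was 1.12 to 1.32 times that of FrB in the 5 mutant mice and 1.35 to 1.66 times in the 5 WT mice. For that step the median difference in log2(CPM + 1) over the members was 0.62, -0.102, 0.991, -3.88 and -0.241 in mutant mice 4, 5, 8, 9 and 10, against 0.34 to 0.66 in WT mice. Within mutant mice the summed CPM of FrD was 0.3 to 0.48 of that of FrC, and that of FrE was 0.817 to 1.46 times that of FrD. For the step from FrB to FrC no member differed between genotypes (0.524% of all genes did); 5 had an unadjusted p under 0.05 in edgeR and DESeq2 called 1. The lowest p by role belonged to Nip7 (5.19 ± 1.44), Nop10 (2.64 ± 0.79), Npm1 (1.94 ± 0.72), Utp18 (2.59 ± 1.15), Polr1e (2.38 ± 1.27) and Nop58 (-0.63 ± 0.55).

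For the step from FrC to FrD 2 members differed, Shq1 (9.83 ± 2.19, edgeR adjusted p = 0.0232) and Nop10 (-2.77 ± 0.79, edgeR adjusted p = 0.0415), against 2.98% of all genes. The size for Shq1 depends on the prior count, since WT FrD held 1 count. Neither was called with the mouse as a block (edgeR adjusted p = 0.655 and 0.748) or without the low-complexity libraries (0.597 and 1), nor without mutant mouse 9 (0.362 and 0.942), where Nop10 had a difference of -0.54. No member was called without WT mouse 1, 2, 3 or 6, and Shq1 alone was called without WT mouse 7 or mutant mouse 10. In FrC, Nop10 had 419, 511, 474, 1139.7 and 674 CPM in mutant libraries, against 466, 423, 389.9, 299.6 and 466 CPM in WT libraries. In FrD, Nop10 had 218, 372, 275, 163 and 213 CPM in mutant libraries, against 208, 192, 177, 247 and 291 CPM in WT libraries. Nop10 overlapped between the genotypes in both fractions, and the highest of these 20 libraries was FrC of mutant mouse 9. Npm1 (-2.33 ± 0.72), Nip7 (-4.08 ± 1.41), Utp18 (-1.41 ± 1.13), Polr1b (1.72 ± 1.56) and Nop58 (0.36 ± 0.55) had the lowest p of the other roles.

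For the step from FrD to FrE, Pus7 alone differed (-6.7 ± 1.45, edgeR adjusted p = 0.0375), against 0.153% of all genes. In FrD, Pus7 had 0.63, 3.45, 6.43, 5.58 and 0.38 CPM in mutant libraries, against 0.04, 0.24, 0.31, 0.05 and 0 CPM in WT libraries. In FrE, Pus7 had 4.08, 9.33, 3.05, 23.8 and 0.37 CPM in mutant libraries, against 15, 4.82, 1.43, 27.9 and 42.2 CPM in WT libraries. Pus7 did not overlap in FrD, where every mutant library lay above every WT library, and overlapped in FrE. The closest FrD libraries, mutant mouse 10 and WT mouse 3, held 9 and 2 counts, and 1 count was worth 0.157 CPM in WT mouse 3, so their order is within counting error. With the mouse as a block the adjusted p was 0.146. Pus7 was not called in 8 of the 10 fits that leave out 1 mouse (edgeR adjusted p up to 0.171), and was called without WT mouse 3 or mutant mouse 9. Of the members 33 of 40 had a lower step in mutant mice, with a median difference of -0.84 against -0.125 for all genes, and 8 had an unadjusted p under 0.05. By role the lowest p belonged to Utp20 (-3.73 ± 1.4), Rrp1b (-5.2 ± 2.00), Nolc1 (-2.3 ± 0.93), Polr1b (-2.12 ± 1.62) and Rrp9 (-1.23 ± 1.2), none called. For the other pathway genes the same 3 tests called 1 gene higher (Ddx47, FrB to FrC), 8 genes lower (FrC to FrD, led by Snu13 at -4.09 ± 0.91, Taf1d at -4.54 ± 1.05 and Polr2l at -4.41 ± 1.06) and none from FrD to FrE.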

How the data were processed

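Gene expression was measured by Smart-seq2 (oligo-dT priming, with ERCC RNA added at lysis) in 40 libraries, 5 mice in each of 8 groups. The authors deposited raw read counts per gene, aligned with HISAT2 2.1.0 to mm10 and counted with featureCounts 1.4.6, per the submitters' processing notes; the sources used here give neither annotation release nor strand setting. Reads carry no molecular identifiers, so counting intervals cover counting error only. The 92 ERCC rows were left out of library totals and tests. Of 21958 genes, 21728 identifiers matched GENCODE M21 of the same build.

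Counts were tested with edgeR 4.0.16 (R 4.3.3; TMM, filterByExpr with a minimum count of 10 and total of 15, robust quasi-likelihood fit, Benjamini-Hochberg adjustment over all genes tested, called at 0.05). Genotypes were compared within fractions and over counts summed per mouse, consecutive fractions within WT, and the steps between genotypes in 1 fit of 40 libraries. P-values reflect the spread between mice. Counts of members with an unadjusted p under 0.05 are given without the share of all genes under it, so they are not set against a background. Fractions of a mouse come from the same animal, so the mouse number pairs them; the median correlation of deviations of same-mouse libraries was between -0.02 and 0.06. Alternatives were RLE size factors, no count filter, DESeq2 1.42.0, ERCC scaling, the mouse as a block, the second-index set as a covariate, and leaving out low-complexity libraries or each mouse. Members and gene lists were chosen with earlier results of these data known. Genes named are every called member, up to 12 of lowest p, the member of lowest p in each role, the 3 other pathway genes of lowest p in each genotype or WT comparison, and Myc, Mycn, Ubtf and Rrn3; others were picked after their values were seen. The statistics were tested on simulated data. The check of the sorted cells against B-lineage markers is not reported here.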

Additional observations from a re-analysis of the deposited data

Results flagged for a closer look

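Groups of 5 libraries were searched for a highest or lowest value far from the rest. Chance gives about 1 in 20 for independent, normally spread values. The groups here share libraries and hold genes picked by lowest p, so that rate need not hold. The criterion was met by 19 of 128 groups of values. In FrB these were Pa2g4 in mutant mouse 9 (366 CPM), Nip7 in WT mouse 7 (118 CPM) and Gar1 in WT mouse 7 (15.8 CPM).

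In FrC, mutant mouse 9 stood apart for Wdr43 (69.1 CPM), Rrp1b (446 CPM) and Nip7 (1359 CPM), mutant mouse 5 for Rrp12 (74.9 CPM) and Utp20 (154 CPM), and mutant mouse 10 for the summed level of the 40 genes (7776 CPM). These 3 libraries were of low complexity. Bop1 stood apart in WT mouse 6 (138 CPM).

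In FrD, Polr1b was far above the rest in WT mouse 2 (26.5 CPM) and Wdr12 in WT mouse 3 (302 CPM), and the sole Shq1 count was in WT mouse 6 (0.05 CPM). In FrE, WT mouse 7 stood apart for Ncl (1052 CPM), Nip7 (2.09 CPM) and Utp20 (96.95 CPM), WT mouse 6 for Bop1 (127.7 CPM), and mutant mice 5 and 9 for Wdr43 (28.7 CPM) and Wdr12 (166 CPM).

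The step between fractions differed between genotypes for 3 genes. From FrC to FrD the difference was 9.83 for Shq1 (edgeR adjusted p = 0.0232) and -2.77 for Nop10 (edgeR adjusted p = 0.0415), and from FrD to FrE it was -6.70 for Pus7 (edgeR adjusted p = 0.0375). With the mouse as a block none of the 3 was called (edgeR adjusted p = 0.655 for Shq1, 0.748 for Nop10 and 0.146 for Pus7).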

How the results depend on the processing

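Numbers of members called moved as follows; the cause was not tested. For mutant over WT in FrB, 3 were called, against 6 with RLE size factors, 8 with DESeq2, 1 with ERCC scaling, 1 with the index set as covariate, 0 without low-complexity libraries, and 2 to 9 when 1 mouse was left out. In FrB, 778 of all 10562 genes were called, against 819 with RLE, 1749 with DESeq2, 148 with ERCC scaling and 398 with the covariate. When 1 mouse was left out, 264 to 1937 of all genes were called. With ERCC scaling 1 member was called in FrC (225 of all 10299 genes), and with DESeq2 1 over the 4 fractions (533 of 12036). For WT FrD over FrC, 12 became 19 with DESeq2, 38 with ERCC scaling, 25 without low-complexity libraries, and 3 to 13 without 1 mouse. Of all 11439 genes 261 were called lower in the main test. Called either way were 1289 genes with DESeq2, 6636 with ERCC scaling, 1874 of 11657 without low-complexity libraries, and 188 to 669 without 1 mouse. For WT FrE over FrD, 5 members became 10 with DESeq2, 3 with ERCC scaling, 10 without low-complexity libraries, and 3 to 6 without 1 mouse. Of all 11439 genes 330 were called higher in the main test. Called either way were 1461 genes with DESeq2, 239 with ERCC scaling, 1038 of 11657 without low-complexity libraries, and 252 to 498 without 1 mouse.

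For the genotype difference in the steps, all-gene calls follow in the order main test, RLE, DESeq2 and range without 1 mouse. They were 65, 187, 299 and 0 to 381 from FrB to FrC. From FrC to FrD they were 370, 546, 611 and 0 to 431, and from FrD to FrE 19, 23, 473 and 0 to 39. Among the members, from FrB to FrC, 0 became 2 with RLE, 1 with DESeq2 and 0 to 2 without 1 mouse. From FrC to FrD, 2 became 4 with RLE or DESeq2, 1 with no filter, 0 with ERCC scaling, without low-complexity libraries or with the replicate block, and 0 to 3 without 1 mouse. From FrD to FrE, 1 became 2 with DESeq2, 0 with ERCC scaling or the replicate block and 0 to 1 without 1 mouse. Without low-complexity libraries the member median of that difference was -0.655. With the block, 6 gene calls were lost: Rrp9 (0.088), Nop2 (0.119), Mybbp1a (0.129), Shq1 (0.655), Nop10 (0.748) and Pus7 (0.146); 1 was gained, Bop1 in WT FrD over FrC (0.0457), and no other member's call changed.

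Signs turned without low-complexity libraries for Rrp9 in FrB (-0.093), Nop56 (0.22) and Rrp1b (-0.44) in FrC, Nhp2 in FrD (0.009), Nop58 (0.48), Nop10 (-0.78) and Npm1 (-0.68) in the FrB to FrC difference, and Npm1 (0.17) in the FrC to FrD difference. Nop56 in FrD was 0.25 with ERCC scaling. Leaving out 1 mouse, Polr1a in FrC ranged from -0.61 to 0.93, Nip7 in FrC from -0.13 to 4.19, Nhp2 in FrD from -1.07 to 0.009, and in the FrC to FrD difference Nip7 from -4.48 to 0.37 and Utp18 from -1.77 to 0.73. The removal of low-complexity libraries was not run for the sum over fractions, since mice would then hold different fractions. In the FrE library of mutant mouse 9, 42111 counts limit every low gene.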
